A study of Mus musculus with 24 samples.

Results

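Transcript levels of 10 genes of the T cell receptor complex, its coreceptor, its first signalling steps and costimulation are described across 24 RNA-seq libraries of mouse CD8+ T cells. The genes were Cd3d, Cd3e, Cd3g, Cd247, Cd8a, Cd8b1, Lck, Zap70, Lat and Cd28, chosen by symbol with earlier results of these data known. All 10 were among the 24537 genes of the deposited table and among the 13044 genes that passed the filter on low counts. CD8+ T cells activated in vitro were treated with LCA, IsoLCA, IsoAlloLCA, DehydroLCA or UDCA at 50 µM, with TCA or TCDCA at 100 µM, or left as Control, with 3 libraries in each of the 8 groups. The unconjugated and the conjugated acids thus had different doses and were not tested against each other. Every group, Control included, held activated cells. The design text gives 24 h of exposure and the treatment protocol gives overnight, and mouse strain, age and the means of activation are not given in the sources used here. Whether the 3 libraries of each group stem from different mice or cultures is not labelled, so p-values measure the spread between these libraries, which may be technical.

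The T cell receptor recognises a peptide on an MHC molecule through its variable chains, which have no signalling parts of their own. The CD3 chains and the zeta chain carry the phosphorylation motifs inside the cell, and the complex reaches the surface only when it is fully assembled. The CD8 coreceptor binds MHC class I and brings the kinase Lck to the receptor, Lck phosphorylates the motifs, Zap70 docks there and phosphorylates the adaptor Lat, and Cd28 delivers the costimulatory signal. LCA, UDCA, TCA and TCDCA are the usual abbreviations of lithocholic, ursodeoxycholic, taurocholic and taurochenodeoxycholic acid. IsoLCA is the epimer of LCA at its ring hydroxyl group, IsoAlloLCA differs from IsoLCA in the configuration at the junction of the first rings, and DehydroLCA carries a ketone in place of that hydroxyl group. UDCA carries an additional hydroxyl group relative to LCA, and TCA carries an additional hydroxyl group relative to TCDCA.

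Each gene had between 4605.5 and 27562.5 counts in every library. Together the 10 genes took 0.402 ± 0.00768% of counts in IsoAlloLCA libraries, against 0.346 ± 0.00151% in Control libraries (SD, n = 3 each). Library depth, as counts in genes, lay between 25998051 and 41024340.5. The share of a library's total that lay in exons was 78.3 ± 2.78% in IsoAlloLCA libraries and 82.6 ± 1.37% in Control libraries. Cd4 reached at most 1.16 CPM (TMM-scaled counts relative to library size), against at least 557 CPM for Cd8a in every library, and Pax5, Adgre1 and Csf1r were at 0 in 18, 17 and 13 of the 24 libraries. The summed level of 6 myeloid markers was 6.62 to 8.85 CPM in IsoAlloLCA libraries and 3.34 to 4.12 CPM in Control libraries, most of it from Cd68. The summed level of 5 NK cell markers was 18.9 to 20.2 CPM in IsoAlloLCA libraries, 34.0 to 36.5 CPM in TCDCA libraries and 27.7 to 29.3 CPM in Control libraries, most of it from Eomes, which activated CD8+ T cells also express. The part of these markers in the results was not tested. The summed level of 5 CD4 T cell markers was 1650 to 1972 CPM in IsoAlloLCA libraries and 2221 to 2476 CPM in Control libraries, nearly all of it from Il2ra, which activated T cells of either kind express. Besides Cd4 and Il2ra, this list holds Zbtb7b at 33.0 to 56.8 CPM, Foxp3 at 7.74 to 11.1 CPM and Cd40lg at no more than 0.560 CPM. Zbtb7b and Foxp3 were thus present in every library, unlike the near absence of Cd4. The summed level of 5 B cell markers was at most 6.38 CPM in every library, and Sox13, a marker of gamma delta T cells, was at most 0.707 CPM. The constant region genes of the receptor's alpha, beta, gamma and delta chains were not found in the deposited table under the symbols searched, so they were not analysed. Sox13 was therefore the only gamma delta marker with a level.

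On the mouse genome (mm10), the CD3 genes and the Cd8 genes are neighbours and the other 5 genes lie apart. Cd3g (chromosome 9, 44969572 to 44980431, minus strand), Cd3d (chromosome 9, 44981786 to 44987052, plus strand) and Cd3e (chromosome 9, 44998743 to 45009590, minus strand) lie side by side, and the start sites of Cd3d and Cd3g point away from each other across 1355 bases. Cd8b1 (chromosome 6, 71322812 to 71337451, plus strand) ends 35976 bases before the start of Cd8a (chromosome 6, 71373427 to 71379171, plus strand). The remaining genes are Zap70 (chromosome 1, 36761798 to 36782820, plus strand), Cd28 (chromosome 1, 60746388 to 60773359, plus strand), Cd247 (chromosome 1, 165788681 to 165862112, plus strand), Lck (chromosome 4, 129548344 to 129573641, minus strand) and Lat (chromosome 7, 126363828 to 126369568, minus strand). In the GENCODE annotation an antisense gene shares 135 exonic bases with Cd3e, and a transcript on the same strand shares 206 with Cd247. Micro-RNA genes lie within exons of Lck and Lat over 25 and 75 bases. No strand option for counting is stated, so reads of these overlaps cannot be assigned with certainty.

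The 250 bases before the start site are shown for the 3 CD3 genes, which moved together under IsoAlloLCA, for Lat, which moved the opposite way, and for Cd8a, which followed another order of acids. They come from RefSeq (GRCm38.p6), which held such windows for 8 of the 10 genes, and they are written 5′ to 3′ on the gene's strand. Capitals mark the ETS core GGAA or, for the opposite strand, TTCC.
Cd3d, chr9:44981536-44981785, plus strand: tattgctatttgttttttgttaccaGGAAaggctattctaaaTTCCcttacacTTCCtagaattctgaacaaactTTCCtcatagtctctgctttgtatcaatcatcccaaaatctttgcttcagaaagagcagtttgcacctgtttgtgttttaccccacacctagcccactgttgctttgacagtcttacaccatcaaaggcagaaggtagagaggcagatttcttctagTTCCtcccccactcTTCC
Cd3g, chr9:44980432-44980681, minus strand: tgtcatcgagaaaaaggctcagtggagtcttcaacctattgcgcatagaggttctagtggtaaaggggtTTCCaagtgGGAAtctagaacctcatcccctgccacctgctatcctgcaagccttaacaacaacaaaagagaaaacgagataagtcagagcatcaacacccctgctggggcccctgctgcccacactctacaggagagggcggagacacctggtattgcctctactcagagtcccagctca
Cd3e, chr9:45009612-45009861, minus strand: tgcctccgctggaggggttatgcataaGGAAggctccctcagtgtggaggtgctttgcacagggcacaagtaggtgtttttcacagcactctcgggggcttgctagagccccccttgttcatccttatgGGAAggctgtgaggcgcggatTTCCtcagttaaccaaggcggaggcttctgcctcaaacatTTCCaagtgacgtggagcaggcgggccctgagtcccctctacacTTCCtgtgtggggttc
Lat, chr7:126369569-126369818, minus strand: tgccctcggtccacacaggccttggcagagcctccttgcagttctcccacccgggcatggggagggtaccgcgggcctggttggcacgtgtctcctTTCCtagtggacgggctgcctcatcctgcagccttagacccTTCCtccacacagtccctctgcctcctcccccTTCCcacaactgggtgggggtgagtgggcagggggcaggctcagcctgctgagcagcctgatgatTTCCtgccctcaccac
Cd8a, chr6:71373177-71373426, plus strand: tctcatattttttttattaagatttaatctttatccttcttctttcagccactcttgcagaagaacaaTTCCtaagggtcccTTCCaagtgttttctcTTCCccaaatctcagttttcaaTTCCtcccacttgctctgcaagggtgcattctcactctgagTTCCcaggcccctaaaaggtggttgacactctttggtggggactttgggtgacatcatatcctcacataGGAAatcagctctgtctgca

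The window of Cd3d held 6 ETS cores and that of Cd8a also held 6, against 5 for Cd3e, 4 for Lat and 2 for Cd3g. At least 1 ETS core was found in 93.4% of the 32851 windows of this length in the RefSeq table. The TCF/LEF core CTTTG, read on both strands as CTTTG or CAAAG, matched at 4 places in the Cd3d window, 2 in that of Cd8a and 1 in that of Cd3e, and the letters were not found in the Cd3g and Lat windows. It was present in 48.6% of all windows, and none of these matches overlapped an ETS core. GC content was 41.2% for Cd3d, 42.8% for Cd8a, 51.6% for Cd3g, 57.2% for Cd3e and 65.2% for Lat. The 3 CD3 windows thus differed in both motif counts and base composition. The Cd3e window ends 21 bases before the start that the deposited table gives.

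IsoAlloLCA gave more calls among the 10 genes than any other acid did against Control, although UDCA gave as many (7) with the share of counts in exons as a covariate. With IsoAlloLCA, Cd3d, Cd3g, Cd3e, Cd247 and Cd28 rose and Lat and Lck fell, while Cd8a, Cd8b1 and Zap70 did not pass the test. Cd8b1 was called higher with the exon share as a covariate (0.22 on the log2 scale, edgeR adjusted p = 5.14e-05) and with library totals only (0.12, 0.0248), and Zap70 with library totals only (0.11, 0.00709). Cd8a was called lower in 4 of 14 alternatives. A gene was called where the edgeR quasi-likelihood test gave a Benjamini-Hochberg adjusted p under 0.05 over all 13044 genes. The calls for 7 of 10 genes stood beside 58.4% of all tested genes called in this comparison, so the count is near the background. The 5 higher genes compare with 30.6% of all genes called higher, and the 2 lower with 27.8% called lower. In these bulk libraries, fewer cells of a type and less RNA per cell cannot be told apart.

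The other acids gave fewer calls. With LCA, Cd8a rose and Lck fell, 2 of 10 genes beside 36.5% of all genes called (17.7% higher and 18.8% lower). With IsoLCA, Cd3g and Cd3d rose, beside 9.84% of all genes called and 3.73% called higher. With UDCA, Cd8a, Cd247 and Cd8b1 rose, beside 19.9% of all genes called and 9.18% called higher. With TCDCA, Cd8a rose and Cd28 fell, beside 13.1% of all genes called (5.08% higher and 8.04% lower). DehydroLCA called 0 of the 10 genes, where 5.83% of all genes were called, and TCA called 0, where 0.437% of all genes were called. DESeq2 also called 0 of the 10 genes with DehydroLCA and with TCA. No gene of the 10 changed by as much as 2-fold in any comparison of the main fit (all 24 libraries, TMM factors, no covariate). Over 14 alternatives, Cd28 reached at most 1.02 on the log2 scale for IsoAlloLCA against IsoLCA. The 7 comparisons share the 3 Control libraries, so they are not independent of each other.

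With the exon share as a covariate, chosen after seeing the data, UDCA also gave calls for Cd3d, Cd3e, Cd3g and Lat, all higher (0.10 to 0.15 on the log2 scale, edgeR adjusted p = 0.00246 to 0.0216). With the same covariate TCDCA also gave calls for Cd8b1, Lck and Lat, all higher (0.09 to 0.11, 0.00476 to 0.0224), and DehydroLCA for Cd247 (0.10, 0.0302). The calls with LCA depended on single libraries. Without LCA replicate 1, 5 genes were called and all were lower, whereas 0 genes were called without LCA replicate 2, LCA replicate 3, Control replicate 2 or Control replicate 3.

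The median log2 fold change of the 10 genes was 0.08 with IsoAlloLCA, 0.08 with UDCA and 0.07 with IsoLCA, against 0.03, 0.01 and 0.01 over all tested genes. It was -0.09 with LCA, against 0.01 over all genes. The 95% intervals with DehydroLCA ran from -0.25 to 0.18 over the 10 genes, and those with TCA from -0.32 to 0.13.

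**Figure D1:**
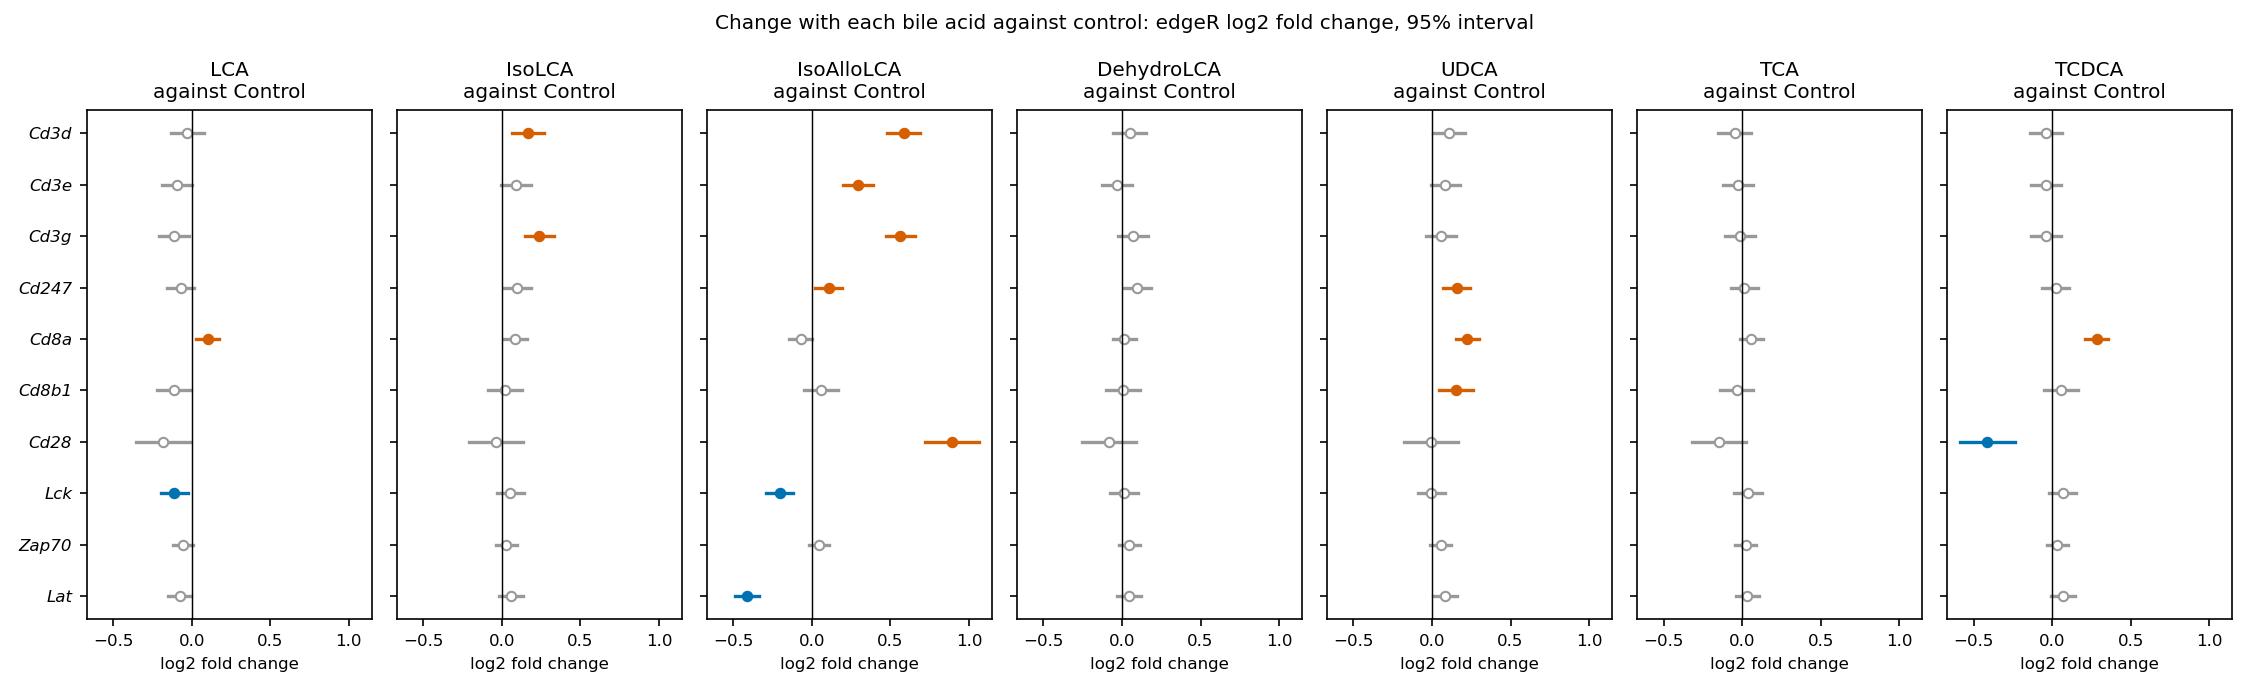
edgeR log2 fold change (x axis) of each of the 10 genes (rows) for each bile acid against Control, with 95% intervals; filled orange points are genes called higher, filled blue points genes called lower, and open grey points genes not called. IsoAlloLCA spreads the genes from -0.41 for Lat to 0.89 for Cd28, whereas with DehydroLCA and TCA every point is open.

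The gamma, delta and epsilon chains of CD3 pair with each other in the receptor complex. Their transcripts rose together with IsoAlloLCA, and Cd3g and Cd3d also rose, by less, with IsoLCA. Cd3d had 373, 343 and 350 CPM in IsoAlloLCA libraries, 276, 263 and 259 CPM in IsoLCA libraries, and 230, 245 and 237 CPM in Control libraries. The IsoAlloLCA libraries stood clear of all others, and every IsoLCA library was above every Control library. The log2 fold change of Cd3d was 0.58 ± 0.05 with IsoAlloLCA (SE; edgeR adjusted p = 4.28e-10) and 0.17 ± 0.05 with IsoLCA (edgeR adjusted p = 0.0352).

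Cd3g had 520, 465 and 492 CPM in IsoAlloLCA libraries, 413, 395 and 373 CPM in IsoLCA libraries, and 329, 335 and 335 CPM in Control libraries. The 3 groups did not overlap. Cd3g had a log2 fold change of 0.56 ± 0.05 with IsoAlloLCA (edgeR adjusted p = 1.52e-10) and 0.24 ± 0.05 with IsoLCA (edgeR adjusted p = 0.000807). Cd3e, the chain on which pairing with both other CD3 chains depends, had 412, 387 and 406 CPM in IsoAlloLCA libraries, against 317, 335 and 329 CPM in Control libraries. These groups did not overlap either, and the log2 fold change of 0.30 ± 0.05 (edgeR adjusted p = 5.61e-06) was smaller than that of Cd3d or Cd3g. With IsoLCA, Cd3e had a log2 fold change of 0.09 ± 0.05 and was not called (edgeR adjusted p = 0.278).

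The rises of all 3 genes with IsoAlloLCA passed in 14 of 14 alternative fits, with log2 fold changes of 0.55 to 0.72 for Cd3d, 0.52 to 0.69 for Cd3g and 0.26 to 0.40 for Cd3e. The rise of Cd3g with IsoLCA also passed in 14 of 14, whereas that of Cd3d passed in 10 of 14. It was lost without Control replicate 1 (0.14, edgeR adjusted p = 0.168), Control replicate 3 (0.16, 0.0869), IsoLCA replicate 1 (0.14, 0.166) or IsoLCA replicate 2 (0.17, 0.0537).

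Among the other groups the CD3 levels lay close together. Cd3d averaged 232 ± 7.76 CPM with LCA, 245 (lowest 234, highest 253) with DehydroLCA, 255 ± 22.3 with UDCA, 229 (lowest 222, highest 242) with TCA and 231 ± 7.28 with TCDCA, against 237 ± 7.50 CPM in Control (SD, n = 3 each). Cd3g averaged 308 ± 11.4 CPM with LCA, 350 ± 16.5 with DehydroLCA, 347 ± 14.7 with UDCA, 330 ± 14.7 with TCA and 324 ± 7.83 with TCDCA, against 333 ± 3.66 CPM in Control. In order of mean level, IsoAlloLCA was highest and IsoLCA came next for both genes, although UDCA libraries overlapped the IsoLCA libraries for Cd3d. The remaining groups overlapped with their neighbours in order. For Cd3g, all LCA libraries (301 to 321 CPM) nevertheless lay below all Control libraries (329 to 335 CPM). The log2 fold change was -0.11 (edgeR adjusted p = 0.0590), and 4 of 14 alternatives called Cd3g lower. These were the replicate block (edgeR adjusted p = 0.0252), only the 6 libraries (0.0299), leaving out LCA replicate 1 (0.0304) and DESeq2 (DESeq2 adjusted p = 0.0462). Cd3e ran from 307 ± 27.7 CPM with LCA to 401 ± 13.2 CPM with IsoAlloLCA, and IsoLCA (348 ± 9.54 CPM) and UDCA (347 ± 11.2 CPM) had almost the same level below it.

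Cd247 encodes the zeta chain, which carries most of the phosphorylation motifs of the complex. Its transcript varied less than those of the CD3 chains, with group means from 190 ± 10.2 CPM (LCA) to 223 ± 11.9 CPM (UDCA). It had 219, 236 and 213 CPM in UDCA libraries, 226, 209 and 210 CPM in IsoAlloLCA libraries, and 197, 202 and 201 CPM in Control libraries. All 6 of these treated libraries were above the Control libraries. The log2 fold change was 0.16 ± 0.04 with UDCA (edgeR adjusted p = 0.00921) and 0.11 ± 0.04 with IsoAlloLCA (edgeR adjusted p = 0.0303). All IsoLCA and DehydroLCA libraries also lay above the Control libraries, with means of 214 CPM for both acids. Their log2 fold changes of 0.10 ± 0.04 were close to that with IsoAlloLCA but were not called (edgeR adjusted p = 0.163 and 0.199).

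The call with UDCA passed in 12 of 14 alternatives and was lost without Control replicate 1 (0.14, edgeR adjusted p = 0.0502) or UDCA replicate 2 (0.11, 0.110). The call with IsoAlloLCA passed in 6 of 14, with log2 fold changes of 0.07 to 0.22. It was lost without Control replicate 1 (0.08, edgeR adjusted p = 0.146), Control replicate 2 (0.11, 0.0504), Control replicate 3 (0.10, 0.0778) or IsoAlloLCA replicate 1 (0.07, 0.180). The same call was also lost with DESeq2 (0.08, DESeq2 adjusted p = 0.106) and with its size factors in edgeR (0.09, edgeR adjusted p = 0.0817). Without a filter on low counts (0.09, edgeR adjusted p = 0.102) and with only the 6 libraries (0.11, 0.0781) it did not pass either. Per length, Cd3g stood at 3.78 ± 0.0992 times the level of Cd247 in IsoAlloLCA libraries, 3.04 ± 0.0637 times in IsoLCA libraries and 2.76 ± 0.00913 times in Control libraries (ratio of TPM, SD, n = 3 each). The highest ratio in a Control library was 2.77 and the lowest in an IsoLCA library 2.97, so these 3 groups did not overlap.

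**Figure D2:**
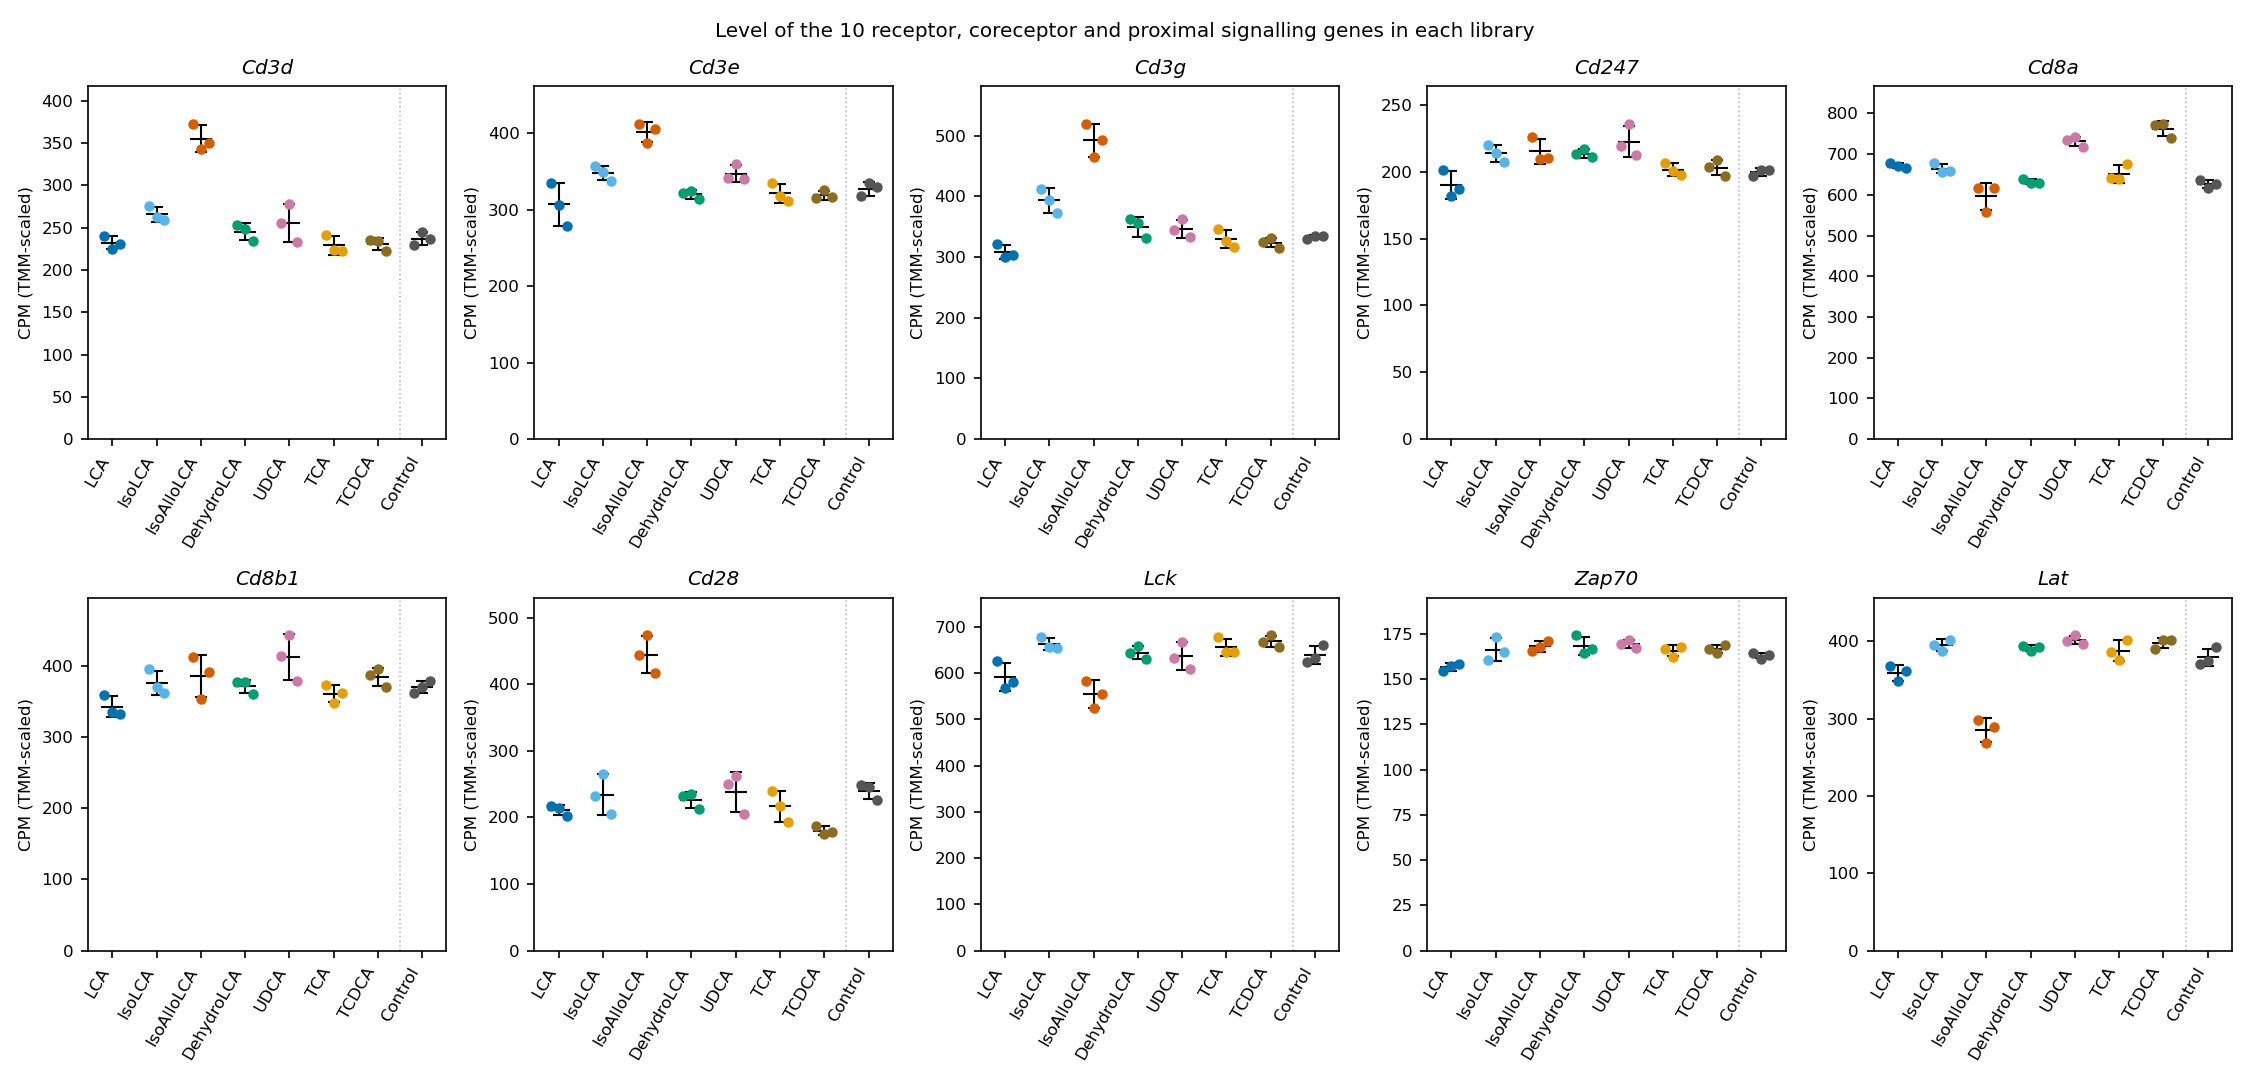
Level of each gene (y axis, TMM-scaled CPM from 0) in each library (points) by group (x axis, acids left, Control right), with the mean and SD of 3 libraries as a horizontal line and bar. The IsoAlloLCA points of Cd3d, Cd3g, Cd3e and Cd28 lie above all other libraries and those of Lat below all others, while Cd8a is highest with TCDCA and UDCA.

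Cd8a and Cd8b1 encode the alpha and beta chains of the CD8 coreceptor, which in most CD8+ T cells of the blood and lymphoid organs form a heterodimer. Cd8a rose with TCDCA, UDCA and LCA, and Cd8b1 rose with UDCA. Cd8a had 770, 774 and 741 CPM in TCDCA libraries, 734, 741 and 718 CPM in UDCA libraries, 677, 670 and 666 CPM in LCA libraries, and 636, 616 and 626 CPM in Control libraries. None of the 9 treated libraries overlapped the Control libraries. Cd8a had a log2 fold change of 0.28 ± 0.04 with TCDCA (edgeR adjusted p = 3.70e-06), 0.22 ± 0.04 with UDCA (edgeR adjusted p = 5.73e-05) and 0.10 ± 0.04 with LCA (edgeR adjusted p = 0.0275).

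The first 2 calls passed in 14 of 14 alternatives, and that with LCA in 8 of 14. The call with LCA was lost without Control replicate 2 (0.09, edgeR adjusted p = 0.103), Control replicate 3 (0.10, 0.0780), LCA replicate 1 (0.09, 0.0821), LCA replicate 2 (0.10, 0.0785) or LCA replicate 3 (0.10, 0.0577). In the remaining groups Cd8a averaged 664 ± 11.8 CPM with IsoLCA, 652 ± 21.9 with TCA, 632 ± 6.31 with DehydroLCA and 596 ± 33.8 with IsoAlloLCA, against 626 ± 10.1 CPM in Control. The IsoAlloLCA libraries had 616, 557 and 616 CPM, and the difference from Control was not called (-0.07 ± 0.04, edgeR adjusted p = 0.0927). It was called lower in 4 of 14 alternatives, among them without IsoAlloLCA replicate 1 (-0.09, edgeR adjusted p = 0.0353) or replicate 3 (-0.09, 0.0439). The others were DESeq2 (-0.09, DESeq2 adjusted p = 0.0186) and its size factors in edgeR (-0.09, edgeR adjusted p = 0.0360).

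Cd8b1 had 414, 443 and 379 CPM in UDCA libraries and 362, 370 and 378 CPM in Control libraries. The lowest UDCA library lay just above the highest Control library. The log2 fold change of Cd8b1 was 0.16 ± 0.05 (edgeR adjusted p = 0.0372), and the call passed in 8 of 14 alternatives. It was lost without UDCA replicate 2 (0.09, edgeR adjusted p = 0.280), UDCA replicate 1 (0.15, 0.0908) or any Control library (0.13 to 0.17, 0.0574 to 0.137). With only the 6 libraries compared it was lost too (0.15, edgeR adjusted p = 0.0617). With TCDCA, Cd8b1 had a log2 fold change of 0.06 ± 0.05 and was not called (edgeR adjusted p = 0.541), and with LCA it was -0.11 ± 0.05 (edgeR adjusted p = 0.0978).

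Per length, Cd8a stood below Cd8b1 in every library. The ratio of Cd8a to Cd8b1 in TPM was 0.896, 0.882 and 0.902 in TCDCA libraries, 0.850, 0.901 and 0.903 in LCA libraries, 0.674, 0.710 and 0.710 in IsoAlloLCA libraries, and 0.792, 0.751 and 0.746 in Control libraries. The TCDCA and LCA libraries lay above every Control library and the IsoAlloLCA libraries below every Control library. UDCA, with which both transcripts were called higher, had a ratio of 0.803 ± 0.0502, against 0.763 ± 0.0256 in Control.

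**Figure D3:**
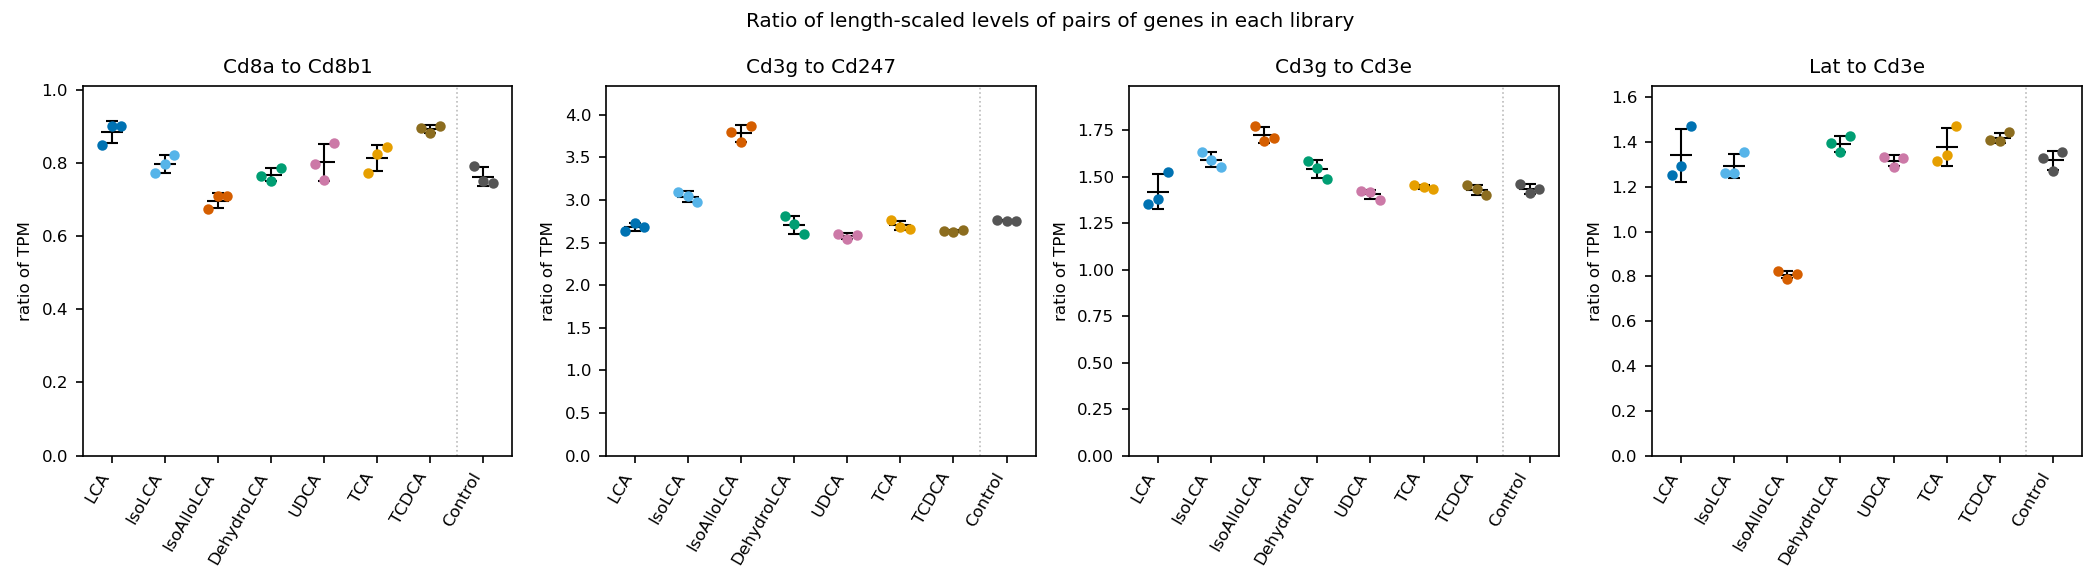
Ratio of length-scaled levels (TPM, y axis from 0) of 4 pairs of genes in each library (points) by group (x axis, Control right), with mean and SD of 3 libraries. IsoAlloLCA has the highest ratios of Cd3g to Cd247 (3.78) and Cd3g to Cd3e (1.72) and the lowest of Lat to Cd3e (0.808), and TCDCA and LCA have the highest ratios of Cd8a to Cd8b1.

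Cd28 binds CD80 and CD86 on antigen-presenting cells and costimulates the receptor. It had the widest range of the 10 genes over the 8 groups, which differ in dose as well as in acid. Cd28 had 443, 473 and 417 CPM in IsoAlloLCA libraries, 187, 175 and 178 CPM in TCDCA libraries, and 248, 245 and 226 CPM in Control libraries. All IsoAlloLCA libraries were above and all TCDCA libraries below the Control libraries. Cd28 had a log2 fold change of 0.89 ± 0.08 with IsoAlloLCA (edgeR adjusted p = 1.71e-09) and -0.41 ± 0.08 with TCDCA (edgeR adjusted p = 0.00150). Both calls passed in 14 of 14 alternatives.

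Among all 13044 genes, 5.60% had a higher log2 fold change than Cd28 with IsoAlloLCA and 6.06% a lower one with TCDCA. Elsewhere Cd28 averaged 211 ± 7.71 CPM with LCA, 234 ± 30.1 with IsoLCA, 227 ± 12.1 with DehydroLCA, 239 ± 29.9 with UDCA and 217 ± 23.8 with TCA, against 240 ± 12.3 CPM in Control. These 6 groups overlapped with their neighbours in order, and none of the 5 acids gave a call. The LCA libraries, at 202 to 217 CPM, nevertheless lay below all Control libraries, at 226 to 248 CPM (log2 fold change -0.18, edgeR adjusted p = 0.0852). Cd28 was called lower with LCA under the replicate block (edgeR adjusted p = 0.0116), with only the 6 libraries (0.00493) and without a filter on low counts (0.0271). The UDCA and IsoLCA libraries spread most, from 205 to 261 CPM and from 205 to 265 CPM.

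Lck, Zap70 and Lat act in sequence below the receptor, and against Control only Lat and Lck gave a call with all libraries and TMM factors. Lat, the membrane adaptor on which the downstream complex assembles, had 298, 268 and 289 CPM in IsoAlloLCA libraries, against 371, 374 and 392 CPM in Control libraries. The groups did not overlap, and Lat was below its Control level in no other group but LCA (359 ± 10.3 CPM, against 379 ± 11.5 CPM in Control). The log2 fold change with IsoAlloLCA was -0.41 ± 0.04 (edgeR adjusted p = 7.25e-10), with -0.45 to -0.33 over 14 alternatives, all past the threshold. Group means of Lat outside IsoAlloLCA ran from 359 CPM with LCA to 402 ± 5.46 CPM with UDCA.

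Lck, the kinase that the CD8 and CD4 coreceptors carry to the receptor, had 584, 523 and 554 CPM in IsoAlloLCA libraries, 626, 568 and 580 CPM in LCA libraries, and 624, 632 and 660 CPM in Control libraries. All IsoAlloLCA libraries were below Control, whereas LCA replicate 1 overlapped it. The log2 fold change was -0.21 ± 0.04 with IsoAlloLCA (edgeR adjusted p = 0.000175) and -0.11 ± 0.04 with LCA (edgeR adjusted p = 0.0406). With the share of counts in exons as a covariate, Lck was at -0.08 with IsoAlloLCA (edgeR adjusted p = 0.0544) and -0.06 with LCA (0.112). The call with LCA passed in 7 of 14 alternatives. It was also lost without Control replicate 2 (-0.12, edgeR adjusted p = 0.0646), Control replicate 3 (-0.09, 0.140), LCA replicate 2 (-0.09, 0.170) or LCA replicate 3 (-0.10, 0.115). Library totals only (-0.07, edgeR adjusted p = 0.0970) and only the 6 libraries (-0.11, 0.0584) did not give it either.

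Zap70, the kinase that docks on the phosphorylated chains, was the steadiest of the 10 genes. Its group means ran from 157 ± 2.22 CPM with LCA to 169 ± 2.22 CPM with UDCA, a ratio of 1.08, and the Control libraries, at 161 to 164 CPM, lay between them. No acid gave a call against Control, apart from IsoAlloLCA with library totals only (0.11, edgeR adjusted p = 0.00709). The largest difference was with LCA, at -0.06 on the log2 scale (95% interval -0.12 to 0.01).

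Relative to each other, the receptor chains and the adaptor shifted in opposite directions with IsoAlloLCA. Lat stood at 0.823, 0.789 and 0.810 times the level of Cd3e per length in IsoAlloLCA libraries, against 1.33, 1.27 and 1.35 times in Control libraries. Lat exceeded Cd3e in every library of the 7 other groups and in none of the IsoAlloLCA libraries. The ratio of Lat to Lck was 0.863 ± 0.00991 in IsoAlloLCA libraries and 0.995 ± 0.00129 in Control libraries. Cd28 stood at 0.367 ± 0.0339 times the level of Cd3e in IsoAlloLCA libraries, 0.187 ± 0.00942 times in TCDCA libraries and 0.243 ± 0.0162 times in Control libraries.

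On the scale of TPM in Control libraries, Cd3g was highest of the 10 genes (676 ± 10.7) and had rank 192 among all genes of the table. Lck (625 ± 5.67) and Lat (622 ± 6.28) followed within their spread, then Cd8b1 (540 ± 1.21), Cd3e (472 ± 10.6), Cd8a (412 ± 14.3), Cd3d (368 ± 11.2), Cd247 (245 ± 3.84), Zap70 (150 ± 4.27) and Cd28 (115 ± 8.44). With IsoAlloLCA, Cd3g stood at 1036 ± 30.7, Cd3e at 601 ± 10.6, Cd8b1 at 584 ± 31.0, Cd3d at 573 ± 9.32, Lck at 562 ± 16.4 and Lat at 485 ± 15.9. Cd3d and Cd3e thus moved above Lat in those libraries, whereas in Control both lay below it.

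Direct comparisons of acids at the same dose show where a single structural change went with a different level. IsoLCA and LCA differ only in the orientation of the hydroxyl group. Cd3g, Cd3d, Cd3e, Cd247, Lck, Lat and Zap70 were higher with IsoLCA, 7 of 10 genes beside 30.3% of all genes called and 15.8% called higher. Cd3g had the largest difference, with 413, 395 and 373 CPM in IsoLCA libraries and 321, 301 and 303 CPM in LCA libraries. The groups did not overlap, and the log2 difference was 0.35 ± 0.05 (edgeR adjusted p = 4.07e-06). The other 6 lay between 0.09 ± 0.03 (Zap70) and 0.19 ± 0.05 (Cd3d).

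Of these, Zap70 passed in 6 of 14 alternatives and Cd3e in 13, being lost without LCA replicate 3 (0.12, edgeR adjusted p = 0.0507). Zap70 was lost without any of the 3 LCA libraries (0.07 to 0.10, edgeR adjusted p = 0.0577 to 0.119). It was also lost without IsoLCA replicate 2 (0.06, edgeR adjusted p = 0.220) or replicate 3 (0.09, 0.0640). Library totals only (0.06, edgeR adjusted p = 0.215) and no filter on low counts (0.09, 0.119) did not call Zap70 either. With only the 6 libraries it was at 0.08 (edgeR adjusted p = 0.124). Cd8a did not differ by a call, with a 95% interval of -0.09 to 0.06. Cd28 had an interval of -0.02 to 0.32 and Cd8b1 of 0.03 to 0.24 (edgeR adjusted p = 0.0552), and neither was called. Cd28 passed without IsoLCA replicate 3 (0.24, edgeR adjusted p = 0.0405) and with the replicate block (0.15, 0.0472). Cd8b1 passed in 6 of 14 alternatives, among them without IsoLCA replicate 3 (0.16, edgeR adjusted p = 0.0443) or LCA replicate 1 (0.17, 0.0304). The others were no filter on low counts (0.14, edgeR adjusted p = 0.0380), the replicate block (0.13, 0.0386) and only the 6 libraries (0.13, 0.0378). DESeq2 also called it (0.14, DESeq2 adjusted p = 0.0493).

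IsoAlloLCA and IsoLCA differ in the ring junction. Cd28, Cd3d, Cd3g and Cd3e were higher and Lat, Lck and Cd8a lower with IsoAlloLCA, 7 of 10 genes beside 59.8% of all genes called (31.7% higher and 28.1% lower). Cd28 differed by 0.92 ± 0.08 on the log2 scale (443, 473 and 417 CPM with IsoAlloLCA, against 232, 265 and 205 CPM with IsoLCA; edgeR adjusted p = 8.26e-10). Lat differed by -0.47 ± 0.04, with 298, 268 and 289 CPM in IsoAlloLCA libraries and 395, 387 and 402 CPM in IsoLCA libraries (edgeR adjusted p = 7.11e-11). Neither gene overlapped between the groups. Cd3d differed by 0.42 ± 0.05, Cd3g by 0.32 ± 0.05, Cd3e by 0.21 ± 0.05, Lck by -0.26 ± 0.04 and Cd8a by -0.16 ± 0.04. Cd8a was at -0.09 (edgeR adjusted p = 0.0799) with the share of counts in exons as a covariate, and each of the other 6 passed in 14 of 14 alternatives. The 95% intervals of the genes not called were -0.08 to 0.10 for Cd247, -0.07 to 0.15 for Cd8b1 and -0.05 to 0.08 for Zap70. With the exon share as a covariate, Cd247 (0.14, edgeR adjusted p = 0.00538) and Cd8b1 (0.23, 9.78e-05) were called higher with IsoAlloLCA, both outside these intervals.

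DehydroLCA and LCA differ in a ketone against a hydroxyl group. Cd3g, Cd247, Lck, Lat and Zap70 were higher with DehydroLCA, 5 of 10 genes beside 17.8% of all genes called and 10.3% called higher. Cd3g had 363, 357 and 332 CPM in DehydroLCA libraries and 321, 301 and 303 CPM in LCA libraries, without overlap, a log2 difference of 0.18 ± 0.05 (edgeR adjusted p = 0.00678). Cd247 differed by 0.17 ± 0.04, Lck by 0.12 ± 0.04, Lat by 0.12 ± 0.04 and Zap70 by 0.10 ± 0.03. Only Cd3g passed in 14 of 14 alternatives. Without LCA replicate 2 it alone was called, with Cd247 at 0.14 (edgeR adjusted p = 0.0668), Lat at 0.10 (0.135), Lck at 0.09 (0.231) and Zap70 at 0.10 (0.0751).

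Without DehydroLCA replicate 1, Lat, Lck and Zap70 lost their calls (edgeR adjusted p = 0.0687, 0.0993 and 0.154), and without LCA replicate 3 or DehydroLCA replicate 3 Lat and Lck did (0.0508 to 0.149). Lck was also lost without DehydroLCA replicate 2 (0.11, edgeR adjusted p = 0.160) and Zap70 without LCA replicate 1 (0.09, 0.0930). With all libraries kept, Lck did not pass with DESeq2 size factors (0.12, edgeR adjusted p = 0.0526) or library totals only (0.10, 0.0542). The exon share as a covariate put Lck at 0.07 (edgeR adjusted p = 0.0787). Zap70 also lost its call with library totals only (0.08, edgeR adjusted p = 0.121) and without a filter on low counts (0.10, 0.0844). The genes not called had 95% intervals of -0.16 to -0.01 for Cd8a, 0.01 to 0.22 for Cd8b1, -0.02 to 0.18 for Cd3d, -0.03 to 0.16 for Cd3e and -0.07 to 0.28 for Cd28. Cd8a was called lower with library totals only (-0.11, edgeR adjusted p = 0.0142) and with only the 6 libraries (-0.09, 0.0171). The exon share as a covariate also called Cd8a lower (-0.11, edgeR adjusted p = 0.0122). With only the 6 libraries, Cd8b1 was called higher (0.11, edgeR adjusted p = 0.0146).

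UDCA carries an additional hydroxyl group relative to LCA. Of the 10 genes 8 were higher with UDCA, beside 26.9% of all genes called and 14.8% called higher, and Lck and Cd28 were not called. Cd8b1 had 414, 443 and 379 CPM in UDCA libraries and 359, 335 and 333 CPM in LCA libraries, without overlap, a log2 difference of 0.27 ± 0.05 (edgeR adjusted p = 0.000423). Cd247 differed by 0.23 ± 0.04 (edgeR adjusted p = 0.000206) and Cd3e by 0.18 ± 0.05 (0.00514). Cd3g, Lat, Cd3d, Cd8a and Zap70 differed by 0.11 to 0.17. Cd247, Cd8b1 and Lat passed in 14 of 14 alternatives. The 95% intervals were 0.02 to 0.19 for Lck and 0.01 to 0.35 for Cd28.

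Without UDCA replicate 2, which had the highest Cd8b1, Cd3d and Cd247 levels of its group, 4 genes were called, with Cd3d at 0.07 (edgeR adjusted p = 0.375), Cd3g at 0.13 (0.0668), Cd8a at 0.11 (0.0536) and Zap70 at 0.10 (0.0565). Without UDCA replicate 3 all 10 genes were called, with Cd28 at 0.28 (edgeR adjusted p = 0.0149) and Lck at 0.14 (0.0323). Cd3d was also lost without LCA replicate 2, LCA replicate 3 or UDCA replicate 1 (edgeR adjusted p = 0.0974 to 0.179). Cd3e was lost without LCA replicate 3 (0.11, edgeR adjusted p = 0.0690) and Zap70 without LCA replicate 1 (0.10, 0.0513). With library totals only, Cd3d (0.11, edgeR adjusted p = 0.0922) and Zap70 (0.08, 0.0804) did not pass. Cd3d was also lost with only the 6 libraries (0.14, edgeR adjusted p = 0.0508), and Zap70 without a filter on low counts (0.11, 0.0560). Lck passed without LCA replicate 1 (0.15, edgeR adjusted p = 0.0193) and with the exon share as a covariate (0.09, 0.00849). Cd28 passed with the replicate block (0.17, edgeR adjusted p = 0.0228) and with only the 6 libraries (0.18, 0.0481). The LCA libraries enter 3 of these comparisons, so the higher levels with IsoLCA, DehydroLCA and UDCA share 1 set of LCA libraries.

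TCA and TCDCA are taurine conjugates that differ in a hydroxyl group. Cd8a was lower with TCA, the single call among the 10 genes, where 3.61% of all genes were called and 0.958% were called lower. Cd8a had 640, 638 and 677 CPM in TCA libraries and 770, 774 and 741 CPM in TCDCA libraries, without overlap. The log2 difference was -0.23 ± 0.04 (edgeR adjusted p = 0.000380) and passed in 14 of 14 alternatives, from -0.25 to -0.21. Cd28 had 240, 216 and 193 CPM in TCA libraries and 187, 175 and 178 CPM in TCDCA libraries. These did not overlap, but the difference of 0.26 ± 0.08 was not called (95% interval 0.09 to 0.44, edgeR adjusted p = 0.0823). It passed in 5 of 14 alternatives, among them without TCA replicate 3 (0.34, edgeR adjusted p = 0.0223). The other 8 genes had differences of -0.09 to 0.03 and 95% intervals within -0.20 to 0.12. Of these, Cd8b1 was called lower with the exon share as a covariate (-0.11, edgeR adjusted p = 0.0276).

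**Figure D4:**
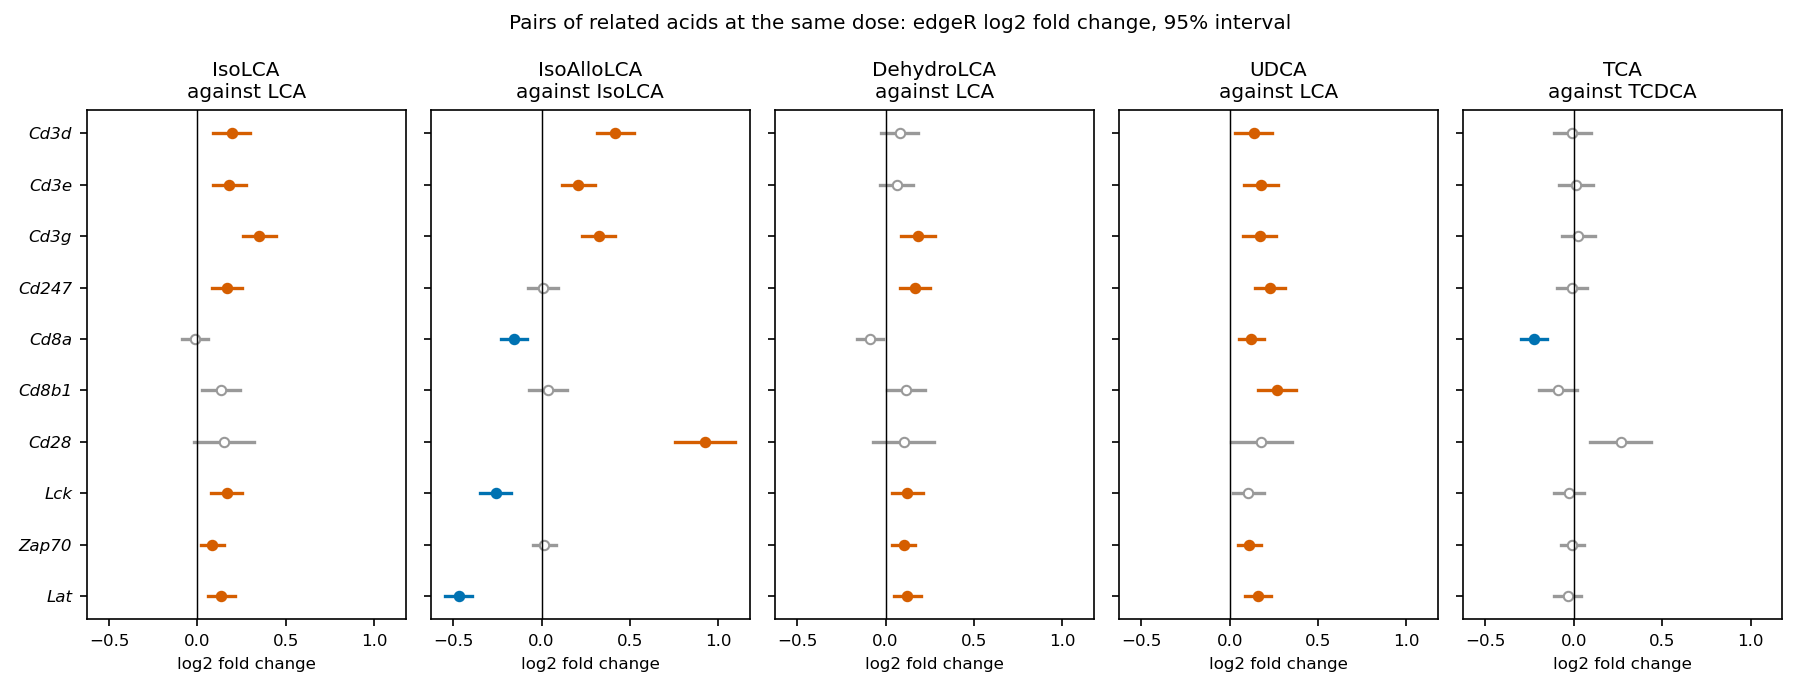
edgeR log2 fold change (x axis) of the 10 genes (rows) between 5 pairs of acids given at the same dose, with 95% intervals; filled orange points are called higher in the first acid of a panel's title, filled blue points called lower, and open points not called. Against LCA, almost all points of IsoLCA, DehydroLCA and UDCA lie to the right of 0, while TCA against TCDCA has Cd8a as its single filled point.

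The wider pathway was described with 5 lists of genes that act beside these 10. With IsoAlloLCA, 8 of 12 accessory and costimulatory receptors rose and 2 fell, with a list median of 0.21 on the log2 scale, against 0.03 over all genes. Over all tested genes 30.6% rose and 27.8% fell with IsoAlloLCA. Cd96, which shares the ligand CD155 with other receptors, rose by 0.90 ± 0.06 (197 CPM with IsoAlloLCA, against 106 CPM in Control; edgeR adjusted p = 9.07e-12). Slamf6, a self-binding receptor of lymphocytes, rose by 0.90 ± 0.07 (59.99 CPM with IsoAlloLCA, against 32.2 CPM in Control; edgeR adjusted p = 7.05e-11). With TCDCA, 3 of the 12 rose and 3 fell, where 5.08% of all genes rose and 8.04% fell, and Ctla4, which competes with Cd28 for its ligands, fell by 0.72 on the log2 scale (205 CPM with TCDCA, against 336 CPM in Control; edgeR adjusted p = 9.15e-09). Ctla4 rose with IsoAlloLCA by 0.68 ± 0.06 (edgeR adjusted p = 2.70e-10), and Slamf6 fell with TCDCA by 0.89 on the log2 scale (edgeR adjusted p = 2.03e-08). Ctla4 also fell with LCA, IsoLCA, UDCA and TCA, and Slamf6 with IsoLCA and TCA. Cd96 also rose with LCA (0.27, edgeR adjusted p = 0.00161) and IsoLCA (0.42, 4.22e-05). Cd28, Ctla4 and Slamf6 were thus each higher with IsoAlloLCA and lower with TCDCA than in Control.

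Of 13 kinases and kinase regulators, 7 rose and 5 fell with IsoAlloLCA, where 30.6% of all genes rose and 27.8% fell, with a median of 0.12. Txk, a kinase of the Tec family, rose by 0.68 ± 0.07 (35.0 CPM with IsoAlloLCA, against 21.9 CPM in Control; edgeR adjusted p = 1.79e-08). Ptprj, a receptor phosphatase, rose by 0.60 ± 0.05 (51.6 CPM with IsoAlloLCA, against 34.0 CPM in Control; edgeR adjusted p = 3.83e-10). Dgka, which removes the second messenger diacylglycerol, rose by 0.54 ± 0.07 (447 CPM with IsoAlloLCA, against 307 CPM in Control; edgeR adjusted p = 1.72e-07).

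The 21 adaptors and effectors split evenly with IsoAlloLCA, as 7 rose, 7 fell and 7 were not called, with a median of 0.04, where 58.4% of all genes were called. Malt1 and Bcl10, which form a complex that leads to NF-kappa B, rose by 0.63 ± 0.05 (296 CPM with IsoAlloLCA, against 192 CPM in Control; edgeR adjusted p = 5.82e-11) and 0.55 ± 0.06 (52.4 CPM with IsoAlloLCA, against 35.8 CPM in Control; edgeR adjusted p = 8.28e-09). Rasgrp1, which activates Ras downstream of diacylglycerol, fell by 0.59 on the log2 scale (189 CPM with IsoAlloLCA, against 283 CPM in Control; edgeR adjusted p = 1.68e-10). Of 10 brakes on the receptor, 4 rose and 3 fell with IsoAlloLCA, with a median of -0.04, beside the same 58.4%. Cish, a SOCS family protein, fell by 0.53 on the log2 scale (196 CPM with IsoAlloLCA, against 283 CPM in Control; edgeR adjusted p = 1.16e-07), and Sla2, an adaptor that lowers receptor levels, rose by 0.36 ± 0.05 (160 CPM with IsoAlloLCA, against 125 CPM in Control; edgeR adjusted p = 7.17e-07). Ubash3b, a phosphatase of Zap70, fell with LCA by 0.42 on the log2 scale (31.6 CPM with LCA, against 42.4 CPM in Control, edgeR adjusted p = 1.71e-06). It also fell with IsoLCA (-0.24, edgeR adjusted p = 0.00413). Sla2 also rose with LCA (0.17, edgeR adjusted p = 0.00903) and IsoLCA (0.28, 0.000271). Rasgrp1 also fell with LCA (-0.24, edgeR adjusted p = 0.000356) and IsoLCA (-0.23, 0.00200).

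Of 14 regulators of the receptor and coreceptor loci, 5 rose and 7 fell with IsoAlloLCA, with a median of -0.10, where 30.6% of all genes rose and 27.8% fell. Tcf7, a transcription factor of naive and memory T cells, rose by 1.52 ± 0.13 (338 CPM with IsoAlloLCA, against 118 CPM in Control; edgeR adjusted p = 5.74e-10). Satb1, a chromatin organiser of T cells, rose by 0.69 ± 0.04 (591 CPM with IsoAlloLCA, against 367 CPM in Control; edgeR adjusted p = 3.10e-14). Tox, an HMG box factor of T cell development, rose with IsoLCA by 0.67 ± 0.06 (27.9 CPM with IsoLCA, against 17.6 CPM in Control, edgeR adjusted p = 1.88e-08). Its rise was almost the same with IsoAlloLCA (0.65 ± 0.06, edgeR adjusted p = 2.52e-09) and smaller with LCA (0.44 ± 0.06, edgeR adjusted p = 5.87e-06). With TCA, where 0.437% of all genes were called, 0 genes of the kinases, adaptors, brakes and locus regulators were called and 2 of the 12 accessory receptors fell. With DehydroLCA, where 5.83% of all genes were called, 2 of 13 kinases and kinase regulators rose and 2 fell, and each of the other lists had at most 2 genes higher and 1 lower.

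The other acids moved these lists in both directions. Over all tested genes 36.5% were called with LCA, 9.84% with IsoLCA, 19.9% with UDCA and 13.1% with TCDCA. With LCA, 3 of the 13 kinases and kinase regulators rose and 3 fell, 3 of the 21 adaptors rose and 4 fell, 3 of the 10 brakes rose and 3 fell, 3 of the 12 accessory receptors rose and 4 fell, and 5 of the 14 locus regulators rose and 4 fell. With IsoLCA, 3 kinases rose and 1 fell, 3 adaptors rose and 3 fell, 2 brakes rose and 3 fell, 4 accessory receptors rose and 2 fell, and 2 locus regulators rose and 2 fell. With UDCA, 5 kinases rose and 0 fell, 2 adaptors rose and 3 fell, 3 brakes rose and 2 fell, 5 accessory receptors rose and 2 fell, and 4 locus regulators rose and 3 fell. With TCDCA, 4 kinases rose and 1 fell, 4 adaptors rose and 3 fell, 3 brakes rose and 4 fell, and 1 locus regulator rose and 4 fell. List medians with these 4 acids lay between -0.10 and 0.09 on the log2 scale.

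**Figure D5:**
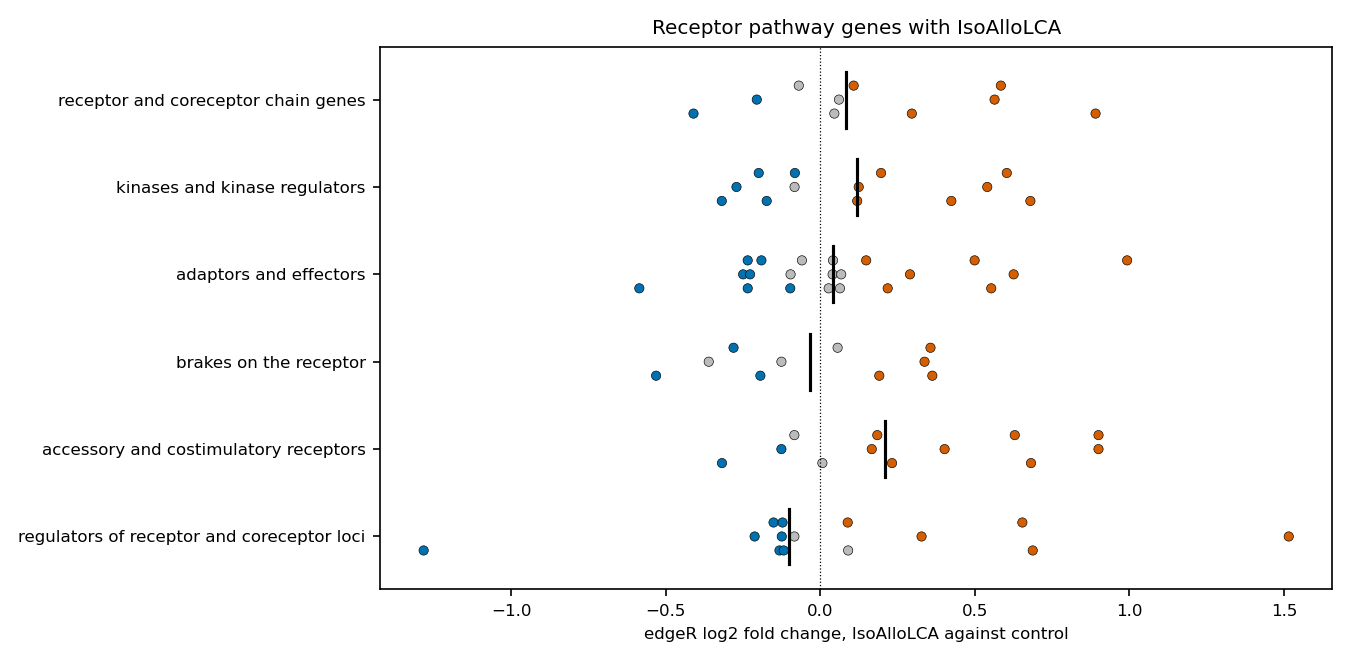
edgeR log2 fold change with IsoAlloLCA against Control (x axis) of each gene (points) in the 10 receptor and coreceptor genes and in 5 lists of pathway genes (rows), with orange for called higher, blue for called lower, grey for not called, and a vertical bar at each list's median. Accessory receptors have a median of 0.21, and locus regulators hold the farthest points, up to 1.52 for Tcf7.

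The gene whose 8 group means followed those of Cd28 most closely, among 9153 genes with at least 10 CPM in a group, was Dpp4, with a Pearson r of 0.997 on the log2 CPM scale and 0.982 over the 7 groups without IsoAlloLCA. Itgb3 (0.992), Sdf4 (0.989), Pnpla8 (0.987) and Atp6ap1 (0.986) came next. Without IsoAlloLCA their r was 0.976 for Itgb3, 0.908 for Sdf4, 0.9035 for Pnpla8 and 0.888 for Atp6ap1. For Cd8a the closest were Arhgap27 (0.954), Meaf6 (0.951), Neto2 (0.950), Timm29 (0.939) and Prim1 (0.938), and for Cd247 they were Erp29 (0.984), Clic1 (0.947), Bnip2 (0.934), Ndufs3 (0.934) and Galnt2 (0.932). These are the highest of 9153 values over 8 points that share libraries and scaling, and they are given as a description. Among the 10 genes, Cd3d followed Cd3g with r = 0.974 over the 8 group means and 0.899 without IsoAlloLCA. Lat followed Zap70 with r = 0.0379 over the 8 groups and 0.969 without IsoAlloLCA, the group in which Lat fell and Zap70 was not called. Cd8a followed its partner Cd8b1 with r = 0.342 over the 8 groups and 0.559 without IsoAlloLCA.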

How the data were processed

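RNA from mouse CD8+ T cells was prepared for sequencing as ultra-low input cDNA libraries, per the labels' protocols. The authors deposited 1 table of expected counts, made with HOMER by counting reads over the exons of 1 RefSeq transcript a gene on mm10 without normalization, per the file headers. STAR, DESeq2 and GRCm38 are also named, per the submitters' processing notes. The deposited values come in steps of 0.5 (29.43% are not whole) and were rounded, upward at 0.5, although the planned test had assumed whole counts. All 24 columns matched a sample title. The members and the lists of pathway genes and markers were chosen with earlier results of these data known.

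Counts were fitted in R 4.3.3 with edgeR 4.0.16 (filterByExpr, TMM factors 0.971 to 1.05, glmQLFit, glmQLFTest), all 24 libraries together and 1 coefficient per group. The common biological coefficient of variation was 4.41%. A call was a Benjamini-Hochberg adjusted p below 0.05 among the 13044 genes. The SE is the absolute log2 fold change divided by the square root of F, so it rests on a spread shared by all groups and moderated across genes. TPM was computed from the counts and the table's transcript lengths. Replicates differed by more than sampling noise (chi-square per degree of freedom 2.83 to 18.7), so none were treated as duplicates. The fit was tested on simulated data.

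Named pathway genes are the 3 of each list with the largest called log2 fold change over the 7 acids and at least 10 CPM in a group. Genes with a like pattern are the 5 with the highest Pearson r to Cd8a, Cd28 and Cd247, the same minimum applied. Alternatives were DESeq2 1.42.0, its size factors in edgeR, library totals only, no filter beyond 1 count, rounding down, only the 6 libraries compared, a replicate block, leaving out each library, and, chosen after seeing the data, the share of counts in exons as a covariate.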

Additional observations from a re-analysis of the deposited data

How the results depend on the processing

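Over all alternatives no called gene changed direction, and log2 fold changes moved by at most 0.191. Values past the threshold in neither fit changed sign in up to 8 of 120 cases under a single alternative and in 31 of 720 with a library left out. Rounding down changed 0 of 120 calls. The number of genes called with LCA against Control was 2. It was 1 with library totals only, 4 with the replicate block, 4 with only the 6 libraries, 1 with the exon share as a covariate, and 0 to 5 with a library left out. With the exon share as a covariate it was 1 with DehydroLCA (0 before), 7 with UDCA (3 before) and 5 with TCDCA (2 before), each against Control. For TCA against TCDCA (1 gene) it was 2 without a filter, 2 with the replicate block, 2 with only the 6 libraries, 3 with the exon share, and 1 to 2 with a library left out. With a library left out it was 1 to 2 for IsoLCA and 1 to 4 for UDCA against Control, 1 to 4 for DehydroLCA against LCA (5) and 4 to 10 for UDCA against LCA (8). The exon share differs between groups, so this covariate and the groups cannot be told apart. Libraries with the same replicate number fell short of the rule for pairing, which asks for r over 0.1 in every pair. Because it asks this of every pair, the rule cannot show that libraries were unpaired. The median r of same-numbered libraries was 0.0416 over 84 pairs (17 over 0.1), against -0.015 over 168 pairs of other numbers (24 over 0.1). On average 15 of 24 libraries were closest to their own number, a hint from the data and not the design. The replicate block added 6 calls and removed 0. With 1 library left out, its group rests on 2 libraries. Each gene had at least 4605.5 counts per library, and counting error was not set apart from the spread between libraries.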
